A study of Mus musculus with 6 samples.

Results

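The genes described here are the extracellular and membrane parts of the Wnt pathway: the Wnt ligands, the Frizzled receptors, the LRP co-receptors with β-catenin, and the secreted inhibitors of the sFRP and Dickkopf families. Members were taken by symbol, as every listed gene whose name is Wnt, Fzd, Sfrp or Dkk followed by a number, with Lrp5, Lrp6 and Ctnnb1 added and Wnt7a, Wnt7b and Dkk3 left out. This gave 36 genes, of which 34 had a transcript in all 6 files and could be compared, out of 25202 genes tested. All libraries came from retinas of wild type mice, labelled as C57BL/6 and 5 weeks old, while the study's methods give C57BL/6J and 4 weeks at the start. Every animal received NMDA, a glutamate receptor agonist that damages retinal ganglion cells, into the vitreous (2 μl, 100 mM). The NMDA + SCF group (3 libraries) then received stem cell factor, the ligand of the receptor c-kit (2 μl, 50 ng/μl), 2 days later, and the NMDA + PBS group (3 libraries) received PBS. Retinas were taken 1 week after that injection. No untreated retina was analysed here, so levels are those of injured tissue with or without SCF. The sources used here do not give the number of animals behind a library, so p-values measure the spread between these libraries.

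Wnt ligands are secreted, lipid-modified proteins that bind Frizzled receptors on nearby cells. With an LRP co-receptor this binding stops the breakdown of β-catenin, which then enters the nucleus and acts with TCF/LEF factors. The sFRP proteins bind the ligands and the Dickkopf proteins bind the co-receptors, and in the eye the pathway is known for its part in the ciliary margin, the lens and the retinal vessels, the last through Norrin and Fzd4.

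Values are FPKM (fragments scaled to the length of the transcript and the size of the library), summed per gene, so levels of different genes can be set side by side per length. The values of a group are given in the order of its replicate numbers. The counted fragments recovered from these values numbered 3404336, 3977111 and 4440581 in the NMDA + PBS libraries. In the NMDA + SCF libraries they numbered 3426326, 3479957 and 3458475. A value of 1 FPKM is therefore a few fragments per kilobase, and 31 of the 34 genes had more than 3 fragments in at least 1 library. The transcripts come in 2 lists. List A serves the NMDA + SCF group and NMDA + PBS replicate 1, and list B serves the remaining NMDA + PBS libraries. Where only the list B libraries differ, the difference goes with the list and not with the group. NMDA + PBS replicate 1 is the only control on list A. The tissue label was checked against markers of bipolar cells, interneurons of the retina: 7 of 10 had a transcript in all files, with summed levels between 266.5 and 328 FPKM, and Prkca was the most abundant.

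Genes were called where limma gave an adjusted p of at most 0.001 with a fold change of 2 or more, and this held for 0 of the 34 members and for none of all genes tested (0%). Without NMDA + PBS replicate 1 it held for 191 genes, or for 55 where genes at 0 in the remaining libraries were kept (an alternative chosen after seeing the data), and again for 0 members. That fit sets list B controls against list A libraries, so group and list cannot be told apart in it. With all 6 libraries no gene passed an adjusted p of 0.05 either, and the smallest adjusted p among the members was 0.536 (limma). At an unadjusted p of at most 0.05, 3 members were higher in NMDA + SCF (Sfrp1, Sfrp5 and Dkk1), where 4.33% of all genes were higher and 4.90% lower. No member was lower at that threshold. The groups did not overlap for 4 members, all with NMDA + SCF higher (Fzd4 beside those 3), against 7.63% of all genes higher and 6.45% lower. For such a gene the exact two-sided permutation test gives p = 0.1, the smallest that 3 against 3 allows. The median log2 fold change over the members was 0.05, beside -0.01 over all genes tested. It turned to -0.02 with upper quartile scaling (all genes -0.05). The median was 0.13 without NMDA + PBS replicate 2, 0.11 without NMDA + SCF replicate 3 and 0.21 at a mean of at least 1 FPKM (all genes 0.07). With protein-coding transcripts alone, and without NMDA + SCF replicates 1 and 3 together, it was 0.01. Both alternatives were chosen after seeing the data.

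**Figure D1:**
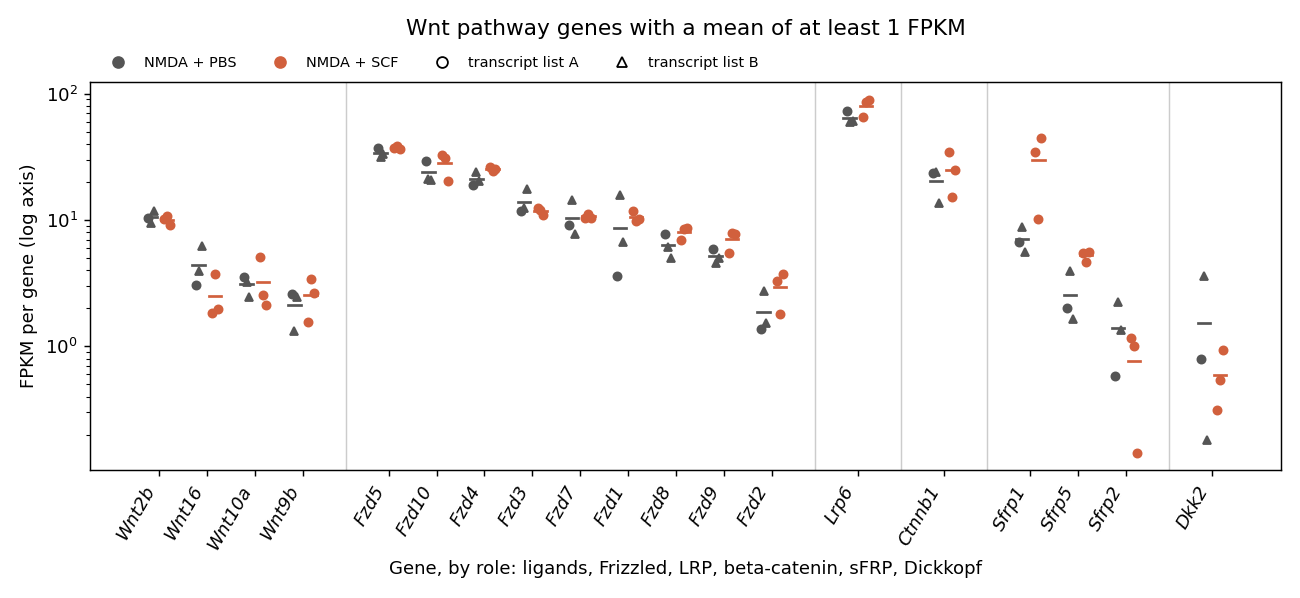
FPKM per gene on a log axis for the 19 members with a mean of at least 1 FPKM, ordered by role. Grey points are the NMDA + PBS libraries and orange points the NMDA + SCF libraries, circles mark transcript list A and triangles list B, and short lines are group means. Lrp6 has the highest values and the points of the groups are interleaved for most genes, while those of Sfrp1, Sfrp5 and Fzd4 do not overlap.

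Most ligands were listed at low levels. Of 16 listed ligands, 14 were tested, 4 had a mean of at least 1 FPKM and 10 had a lower mean. The summed level of the tested ligands was 23.4, 22.3 and 27.3 FPKM in NMDA + PBS and 22.3, 24.1 and 19.95 FPKM in NMDA + SCF. The groups overlapped. The most abundant was Wnt2b, a ligand known from the ciliary margin and pigment epithelium, which took between 42.5 and 45.7% of that sum. Wnt2b was at 10.3, 9.47 and 11.7 FPKM in NMDA + PBS and at 10.2, 10.7 and 9.07 FPKM in NMDA + SCF, and its values varied by 9.20% (coefficient of variation) over the 6 libraries.

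Wnt16, a ligand best known from bone and joint tissue, was at 3.07, 3.93 and 6.19 FPKM in NMDA + PBS and at 1.83, 3.72 and 1.99 FPKM in NMDA + SCF. NMDA + SCF replicate 2 lay within the range of the NMDA + PBS libraries, so the groups overlapped. Its log2 fold change was -0.62 (SE 0.35, adjusted p = 0.58, limma), which had the lowest adjusted p of the ligands. Leaving out single libraries gave -0.85 at the lowest, when NMDA + SCF replicate 2 was dropped, and -0.39 at the highest, when NMDA + PBS replicate 3, its highest library, was dropped. It was -0.25 against NMDA + PBS replicate 1 alone, the control with the same transcript list, and -0.15 without NMDA + SCF replicates 1 and 3 together, an alternative chosen after seeing the data. Of 10 markers of cornea and conjunctiva, tissues at the front of the eye, 8 were measured, with Krt5 the most abundant. Their summed level was 25.1, 39.7 and 54.7 FPKM in NMDA + PBS and 5.36, 7.02 and 14.5 FPKM in NMDA + SCF. These groups did not overlap, unlike those of Wnt16. The sum and Wnt16 were both highest in NMDA + PBS replicate 3. Within NMDA + SCF the sum was highest in replicate 3 and Wnt16 in replicate 2. The median log2 fold change of the 8 was -1.05, and 3 were lower at an unadjusted p of at most 0.05 (limma). Krt14 was at 0 in NMDA + SCF replicates 2 and 3, and Aldh1a1 was at 0 in every library but those. The part of this tissue in the Wnt16 values was not tested.

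Wnt10a was at 3.57, 3.26 and 2.46 FPKM in NMDA + PBS and at 5.09, 2.56 and 2.11 FPKM in NMDA + SCF. Its highest and its lowest value were both in NMDA + SCF. Wnt9b was at 2.60, 1.34 and 2.44 FPKM in NMDA + PBS and at 1.55, 3.43 and 2.62 FPKM in NMDA + SCF, again with overlapping groups.

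The 10 other tested ligands (Wnt2, Wnt3, Wnt3a, Wnt4, Wnt5a, Wnt5b, Wnt6, Wnt8a, Wnt8b and Wnt11) had no value above 1.38 FPKM in a library and at most 35 fragments. Among them are Wnt5a and Wnt11, ligands known for signalling without β-catenin, and Wnt3a, widely used to activate β-catenin in culture. Wnt3a rested on 1 fragment in all, and differences between groups were not detectable at this depth for such a gene. Of the 14 ligands, 4 had a positive and 10 a negative log2 fold change with a median of -0.05. With upper quartile scaling 3 of 14 were positive, and without NMDA + PBS replicate 3 it was 7 of the 13 ligands tested there. Wnt9a, on list A only, was listed at 0 in all 4 libraries with that list. Wnt10b, on list B only, had 2 fragments in NMDA + PBS replicate 2 and none in replicate 3.

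The receptors were measured more deeply. Of 10 Frizzled genes 9 had a mean of at least 1 FPKM, and the sum over the family was 125, 133 and 119 FPKM in NMDA + PBS and 147, 146 and 134 FPKM in NMDA + SCF. The lowest NMDA + SCF sum lay just above the highest NMDA + PBS sum, but with upper quartile scaling the sums overlapped, with NMDA + SCF replicate 3 (129.1 FPKM) below NMDA + PBS replicate 1 (138 FPKM). Fzd5, a receptor needed in eye development, was the most abundant and took between 23.9 and 29.8% of the sum. It was at 37.3, 31.8 and 33.5 FPKM in NMDA + PBS and at 37.3, 38.7 and 36.2 FPKM in NMDA + SCF, with the smallest relative spread of the members (coefficient of variation 7.32%).

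Fzd10 was at 29.3, 21.3 and 20.9 FPKM in NMDA + PBS and at 32.7, 31.2 and 20.2 FPKM in NMDA + SCF. NMDA + SCF replicate 3 held its lowest value, so the groups overlapped. Fzd4, the receptor of Norrin and needed for retinal vessels, was at 19.1, 24.1 and 20.4 FPKM in NMDA + PBS and at 26.4, 24.4 and 25.1 FPKM in NMDA + SCF. Every NMDA + SCF library lay above every NMDA + PBS library, but the lowest of the former was only 1.01 times the highest of the latter. The log2 fold change was 0.25 (SE 0.17, adjusted p = 0.654, limma). It was 0.13 with upper quartile scaling and 0.39 against NMDA + PBS replicate 1 alone, the control with the same transcript list. Ndp, the gene of Norrin, was at 29.7, 16.2 and 15.2 FPKM in NMDA + PBS and at 22.3, 30.8 and 25.4 FPKM in NMDA + SCF, with overlapping groups. Of 9 endothelial markers 8 were measured, with Cldn5 the most abundant, Slco1a4 at 0 in every library but NMDA + PBS replicate 1 and Emcn at 0 in replicate 2 of each group. Their sum was 138, 153 and 136 FPKM in NMDA + PBS and 137, 168 and 170 FPKM in NMDA + SCF, with a positive log2 fold change for 4 and a negative one for 4. Within it Cldn5 was at 78.5, 63.5 and 28.5 FPKM in NMDA + PBS and at 74.3, 102 and 99.99 FPKM in NMDA + SCF. Flt1, a receptor of vascular growth factors, was at 17.04, 57.1 and 69.0 FPKM in NMDA + PBS and at 18.1, 22.7 and 21.2 FPKM in NMDA + SCF. NMDA + PBS replicate 1 was as low in Flt1 as the NMDA + SCF libraries that share its transcript list. The Flt1 difference therefore goes with the list and not with the group, and its cause was not tested. Cdh5 was at 6.76, 7.36 and 7.33 FPKM in NMDA + PBS and at 8.33, 7.41 and 8.69 FPKM in NMDA + SCF. Of the 8 markers only Cdh5 had groups that did not overlap. The endothelial markers did not move one way, and their part in the Fzd4 values was not tested. In tissue of mixed cells, more cells of a type and more RNA per cell cannot be told apart.

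Fzd3, a receptor known from planar cell polarity and axon growth, was at 11.8, 12.4 and 17.7 FPKM in NMDA + PBS and at 12.4, 12.1 and 11.1 FPKM in NMDA + SCF. Its log2 fold change of -0.20 (SE 0.22, adjusted p = 0.743, limma) became -0.03 without NMDA + PBS replicate 3. Fzd3 was the only one of the 9 receptors with a negative value. The other 8 were positive, with a median of 0.25 over the 9, none of them past the threshold. With upper quartile scaling 7 were positive and the median was 0.13, beside -0.05 over all genes. Over all genes with a mean of at least 1 FPKM the median was 0.07 without that scaling.

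Fzd7 was at 9.20, 14.4 and 7.75 FPKM in NMDA + PBS and at 10.4, 11.2 and 10.4 FPKM in NMDA + SCF. The NMDA + SCF libraries lay inside the range of the others. Fzd1 was at 3.64, 15.7 and 6.71 FPKM in NMDA + PBS and at 11.8, 9.86 and 10.1 FPKM in NMDA + SCF. Here too the widest spread was within NMDA + PBS, and the log2 fold change was 0.46 (SE 0.44, adjusted p = 0.715, limma), 0.03 without NMDA + PBS replicate 1 and 0.95 without replicate 2. Without replicate 2 it was at an unadjusted p of at most 0.05 (adjusted p = 0.577, limma), and against replicate 1 alone, the control with the same transcript list, the log2 fold change was 1.32. Fzd8 was at 7.81, 6.09 and 5.05 FPKM in NMDA + PBS and at 6.89, 8.42 and 8.64 FPKM in NMDA + SCF. Its file model differs from the annotation used for the other members, so its fragments were computed from the length in the files.

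Fzd9 was at 5.89, 4.61 and 5.01 FPKM in NMDA + PBS and at 5.47, 7.90 and 7.69 FPKM in NMDA + SCF. Fzd2 was at 1.36, 2.75 and 1.54 FPKM in NMDA + PBS and at 3.27, 1.80 and 3.71 FPKM in NMDA + SCF. For both, one NMDA + SCF library lay within the range of the NMDA + PBS libraries. Fzd6 rested on a retained-intron transcript with at most 2 fragments in a library, so its level is not known from these values.

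The co-receptors differed in depth from each other. Lrp6 had the highest summed FPKM of the members, at 73.2, 59.5 and 60.3 FPKM in NMDA + PBS and at 65.5, 86.0 and 89.6 FPKM in NMDA + SCF. The groups overlapped, with a log2 fold change of 0.31 (SE 0.19, adjusted p = 0.612, limma). Between 26.7 and 58.2% of this sum came from the coding transcript. A retained-intron transcript of 941 bases (chr6:134540774-134541714, minus strand, GRCm38), inside the gene's span from 134446476 to 134566965, was at 48.7, 31.3 and 23.7 FPKM in NMDA + PBS and at 41.6, 60.5 and 65.1 FPKM in NMDA + SCF. The coding transcript of 9368 bases was at 24.4, 27.4 and 35.1 FPKM in NMDA + PBS and at 23.7, 25.5 and 24.0 FPKM in NMDA + SCF. It held 777, 1019 and 1459 fragments in NMDA + PBS and 762, 831 and 776 in NMDA + SCF, far more than the short transcript. With protein-coding transcripts alone, an alternative chosen after seeing the data, the log2 fold change of Lrp6 was -0.22 (SE 0.17, adjusted p = 0.608, limma), so its sign depends on which transcripts are summed. For the coding transcript NMDA + PBS replicate 1 lay within the range of the NMDA + SCF libraries, and only the list B libraries were higher. That difference therefore goes with the list and not with the group, and its cause was not tested. Lrp5, the other co-receptor and like Fzd4 needed for retinal vessels, had at most 8 fragments in a library and at most 1 on its listed coding transcript. Only 1 of its 2 annotated coding transcripts was in all files, of 2759 bases where the longest has 5161. The level of Lrp5 is therefore not known from these values.

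Ctnnb1 encodes β-catenin, which also links cadherins to the cytoskeleton. It was at 23.5, 24.2 and 13.7 FPKM in NMDA + PBS and at 34.5, 15.3 and 24.7 FPKM in NMDA + SCF. The lowest library was NMDA + PBS replicate 3 and the next lowest NMDA + SCF replicate 2, so the spread within each group exceeded the difference between them (log2 fold change 0.24, SE 0.34, adjusted p = 0.813, limma). The sign turned without NMDA + PBS replicate 3 (-0.01) and without NMDA + SCF replicate 1 (-0.03). Only 2 of its 6 annotated coding transcripts were in all files, the longer of 886 bases where the full transcript has 3623, and 3 retained-intron transcripts made up between 21.1 and 39.0% of its FPKM. These values therefore describe fragments of the gene and not its full mRNA.

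**Figure D2:**
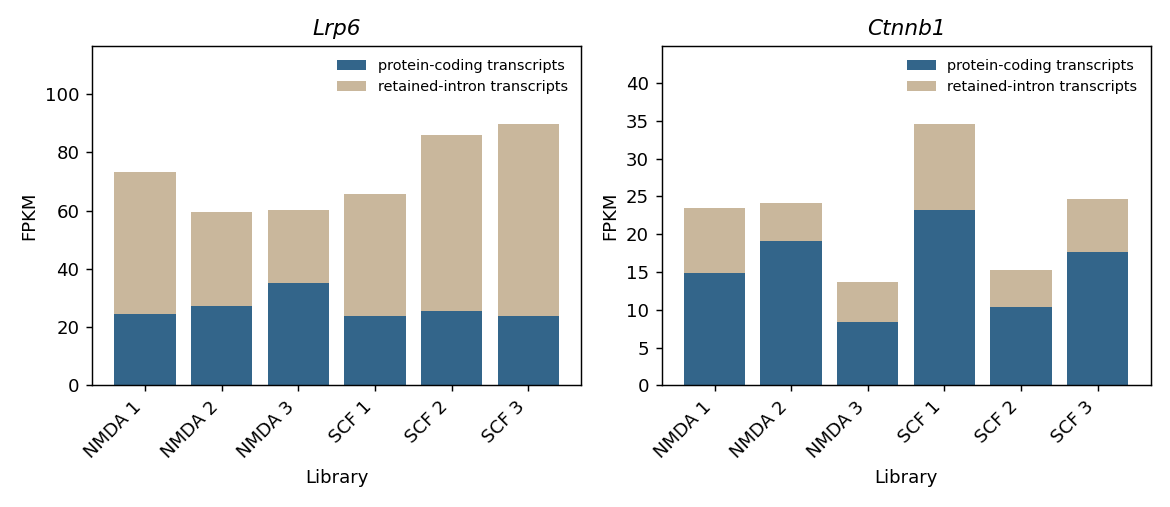
FPKM of Lrp6 and Ctnnb1 in each library as stacked bars from 0, split into protein-coding and retained-intron transcripts. For Lrp6 the coding part lies between 23.7 and 35.1 FPKM and the taller bars of NMDA + SCF replicates 2 and 3 come from the retained-intron part.

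Among the inhibitors, Sfrp1, which binds Wnt ligands through a Frizzled-like domain, had the largest log2 fold change of the members tested. It was at 6.65, 8.86 and 5.61 FPKM in NMDA + PBS and at 34.8, 10.1 and 44.6 FPKM in NMDA + SCF. Replicates 1 and 3 of NMDA + SCF were high and replicate 2 was 1.14 times the highest NMDA + PBS library, so the groups did not overlap but the spread within NMDA + SCF was wide (29.8 ± 17.8 against 7.04 ± 1.66 FPKM, mean ± SD, n = 3 each). The ratio of means was 4.24 and the log2 fold change 1.73 (SE 0.51, adjusted p = 0.536, limma). Without NMDA + SCF replicates 1 and 3 together, an alternative chosen after seeing the data, the log2 fold change was 0.49. Against NMDA + PBS replicate 1, the control with the same transcript list, the mean of NMDA + SCF was 4.49 times as high. The gene (ENSMUSG00000031548) lies on chromosome 8 from 23411502 to 23449632 on the plus strand of GRCm38.

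The high Sfrp1 libraries were also the libraries with the highest summed lens markers. Of 17 lens markers 16 were measured, and their summed level was 27.1, 345 and 335 FPKM in NMDA + PBS and 5606, 674 and 12036 FPKM in NMDA + SCF. Crygs, a lens crystallin, was the most abundant. In NMDA + PBS the lens factor Foxe3 and the lens gene Lctl were at 0 in all libraries. Cryaa and Lim2 were at 0 in replicates 1 and 2 of that group, Grifin, Gja3, Crybb2 and Crybb3 in replicate 1 and Crygd in replicate 3. In NMDA + SCF replicate 2 Lctl was also at 0, and Foxe3 and Cryaa rested on 1 and 3 fragments. For the 16 markers the median log2 fold change was 3.59, and 12 were higher at an unadjusted p of at most 0.05 (limma). The part of lens tissue in the Sfrp1 values was not tested.

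Sfrp5, another member of the family, was at 2.01, 3.97 and 1.66 FPKM in NMDA + PBS and at 5.53, 4.69 and 5.63 FPKM in NMDA + SCF. The NMDA + SCF libraries were all above the NMDA + PBS libraries, and NMDA + SCF replicate 2 was the lowest of its group, as for Sfrp1. Group means were 5.28 ± 0.52 and 2.55 ± 1.25 FPKM (SD, n = 3 each), with a log2 fold change of 0.88 (SE 0.32, adjusted p = 0.536, limma). It was no longer at an unadjusted p of at most 0.05 (limma) in 5 of the 6 fits that leave out 1 library, all but that without NMDA + PBS replicate 2, nor with a replicate block. The values rest on 13, 30 and 14 fragments in NMDA + PBS and 36, 31 and 37 in NMDA + SCF. Sfrp5 (ENSMUSG00000018822) lies on chromosome 19 from 42197971 to 42202252 on the minus strand.

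Markers of the ciliary body and iris, tissue at the edge of the retina, had a similar order of groups. All 6 were measured and their summed level was 15.1, 23.1 and 19.97 FPKM in NMDA + PBS and 32.2, 32.9 and 44.3 FPKM in NMDA + SCF, with Zic2 the most abundant and none at 0. For 5 of these 6 genes every NMDA + SCF library was above every NMDA + PBS library, and Zic2, Wfdc1 and Msx1 were higher at an unadjusted p of at most 0.05 (limma). The part of this tissue in the Sfrp1 and Sfrp5 values was not tested.

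**Figure D3:**
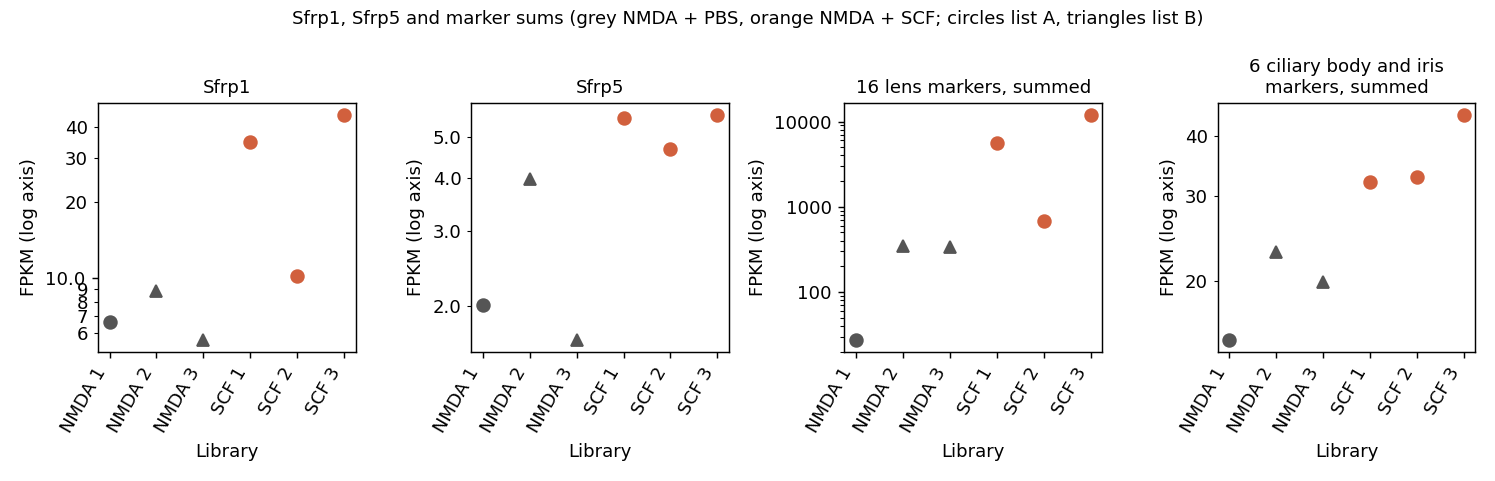
FPKM of Sfrp1 and Sfrp5 and the summed FPKM of 16 lens markers and of 6 ciliary body and iris markers in each library, on log axes. Grey points are NMDA + PBS and orange points NMDA + SCF, with circles for transcript list A and triangles for list B. NMDA + SCF replicate 2 is the lowest of its group for Sfrp1 (10.1 FPKM), for Sfrp5 (4.69 FPKM) and for the lens sum (674 FPKM).

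Sfrp2 was at 0.587, 2.26 and 1.35 FPKM in NMDA + PBS and at 1.17, 1.004 and 0.144 FPKM in NMDA + SCF, with overlapping groups and at most 18 fragments. Dkk2, which can raise or lower Wnt signalling depending on the co-receptor, was at 0.793, 3.60 and 0.182 FPKM in NMDA + PBS and at 0.315, 0.543 and 0.937 FPKM in NMDA + SCF. NMDA + PBS replicate 2 held 53 fragments of Dkk2 where no other library had more than 12. In the same library Lum, a marker of corneal stroma, was at 17.8 FPKM where no other library exceeded 1.92 FPKM. Dcn and Krt14 were also highest there, while Krt5, Krt12, Krt15 and Dsg1a were higher in NMDA + PBS replicate 3. The summed cornea and conjunctiva markers were at 39.7 FPKM in replicate 2 and at 54.7 FPKM in replicate 3, where Dkk2 was lowest. The part of that tissue in the Dkk2 values was not tested. Dkk1, an inhibitor that binds LRP co-receptors, had 0 fragments in every NMDA + PBS library and 3, 4 and 2 fragments in NMDA + SCF. The mean of those counts is no higher than the floor of 3 fragments used here, and no fold is given, although the fit put it at an unadjusted p of at most 0.05. Sfrp4 and Dkk4 had at most 12 and 4 fragments.

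Promoter sequences (250 bases before to 50 after the start, RefSeq, GRCm38.p6) were found for 24 of the 36 members. The letters CTTTG followed by AA, AT, TA or TT, forms of the TCF/LEF motif, were searched on both strands. They were found in 5 of the 28 promoters of members, beside 16.9% of all 32851 promoters. The sequences of members whose groups did not overlap are shown so that the genes with separate groups can be set side by side, with matches in capitals. Dkk1 (chr19:30549447-30549746, minus strand) had 2 matches, and Sfrp5 (chr19:42202203-42202502, minus strand) and Fzd4 (chr7:89404116-89404415, plus strand) had none. A match describes letters only. Sfrp1 has no entry in the table.
Dkk1: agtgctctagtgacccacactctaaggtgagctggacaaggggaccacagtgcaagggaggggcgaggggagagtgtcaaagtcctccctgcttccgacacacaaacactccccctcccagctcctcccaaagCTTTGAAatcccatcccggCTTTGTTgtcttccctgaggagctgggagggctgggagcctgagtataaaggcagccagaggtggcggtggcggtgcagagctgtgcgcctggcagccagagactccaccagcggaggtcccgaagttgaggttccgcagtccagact
Sfrp5: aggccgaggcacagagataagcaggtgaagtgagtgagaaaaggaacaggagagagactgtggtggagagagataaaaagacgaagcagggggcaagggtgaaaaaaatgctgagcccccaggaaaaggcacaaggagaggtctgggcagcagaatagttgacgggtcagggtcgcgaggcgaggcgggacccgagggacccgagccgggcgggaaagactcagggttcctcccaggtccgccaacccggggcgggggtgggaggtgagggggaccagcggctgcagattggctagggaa
Fzd4: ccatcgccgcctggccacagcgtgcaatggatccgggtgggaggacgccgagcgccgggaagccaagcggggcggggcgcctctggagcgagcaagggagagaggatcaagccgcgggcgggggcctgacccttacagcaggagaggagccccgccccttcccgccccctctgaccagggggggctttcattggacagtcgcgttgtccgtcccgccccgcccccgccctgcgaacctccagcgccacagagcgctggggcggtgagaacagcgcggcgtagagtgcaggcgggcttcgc

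The wider pathway was described by lists of 70 further genes, of which 62 were tested. At an unadjusted p of at most 0.05, 2 were higher and 4 lower in NMDA + SCF (limma), none at an adjusted p of 0.05, and the median log2 fold change was -0.01. The groups did not overlap for 5 higher and 4 lower genes. Over all genes the shares at that p were 4.33% higher and 4.90% lower, and those without overlap 7.63% and 6.45%, so these counts are near the background. In the membrane and extracellular lists, the ligand carrier Wls was at 1.34, 1.40 and 0.823 FPKM in NMDA + PBS and at 2.09, 1.81 and 2.50 FPKM in NMDA + SCF. Lgr5, a receptor of R-spondins, was at 10.1, 18.8 and 9.99 FPKM in NMDA + PBS and at 13.03, 14.5 and 13.2 FPKM in NMDA + SCF, and Lgr4 followed at a mean of 2.70 FPKM, on 2 to 8 fragments in a library. The groups of Wls and Lgr4 did not overlap, with NMDA + SCF higher, and those of Lgr5 did.

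Frzb, a further secreted inhibitor, was at 30.4, 28.5 and 32.7 FPKM in NMDA + PBS and at 28.1, 35.6 and 29.9 FPKM in NMDA + SCF, with overlapping groups. The symbol of this relative of the sFRP genes keeps it outside the members. Its level was above that of Sfrp1 in every NMDA + PBS library and in NMDA + SCF replicate 2, and below it in NMDA + SCF replicates 1 and 3. Sostdc1 had a mean of 12.5 FPKM. Reck, a partner of Fzd4 signalling, had a mean of 2.37 FPKM, on 2 to 8 fragments in a library. Among receptors of other kinds, Celsr2 and Ptk7 had means of 13.9 and 12.4 FPKM. The groups of Ptk7 and of Ror1 (named after its values were seen) did not overlap, with NMDA + SCF higher. Ryk, a Wnt receptor with an inactive kinase domain, was at 4.09, 8.44 and 4.58 FPKM in NMDA + PBS and at 2.14, 1.08 and 1.61 FPKM in NMDA + SCF, and its groups did not overlap with NMDA + SCF lower (log2 fold change -1.32, SE 0.35, adjusted p = 0.536, limma). It had 13, 31 and 22 fragments in NMDA + PBS and 8, 4 and 7 in NMDA + SCF, close to the floor.

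In the cytoplasmic relay, Gsk3b and Tnks had the highest means, at 91.9 and 56.9 FPKM, and 1 gene was higher and 3 lower at an unadjusted p of at most 0.05 (limma). Dvl1, which carries the signal from Frizzled, was the higher one, at 3.20, 5.06 and 2.41 FPKM in NMDA + PBS and at 7.76, 5.66 and 8.30 FPKM in NMDA + SCF. Csnk1a1, a kinase of the destruction complex, had 9, 1417 and 1293 fragments in NMDA + PBS and 4, 5 and 6 in NMDA + SCF. NMDA + PBS replicate 1, with the same transcript list as NMDA + SCF, was about as low as those libraries. The large difference in Csnk1a1 therefore goes with the list and not with the group. Its cause was not tested. Axin1, the scaffold of that complex, was at 3.03, 7.39 and 3.52 FPKM in NMDA + PBS and listed at 0 in every NMDA + SCF library (adjusted p = 0.536, limma). Those values rest on 3, 111 and 59 fragments, so the level in replicate 1, the control with the transcript list of NMDA + SCF, lies at the floor. The 111 and 59 fragments were both in list B libraries, so group and list cannot be told apart for Axin1. Apc had at most 7 fragments in a library.

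Among nuclear partners, Ctnnbip1, which binds β-catenin and keeps it from TCF factors, was at 59.1, 40.0 and 37.8 FPKM in NMDA + PBS and at 56.8, 69.2 and 70.2 FPKM in NMDA + SCF. Its groups overlapped at NMDA + PBS replicate 1, and its log2 fold change was 0.53 (SE 0.22, adjusted p = 0.536, limma). Pygo1 followed with a mean of 15.0 FPKM. Of 12 common transcriptional targets, Lgr5 again among them, 9 were tested and none passed an unadjusted p of 0.05, with a median log2 fold change of -0.06. Ccnd1, a cell cycle gene and the most abundant of these targets, was at 20.7, 20.2 and 19.9 FPKM in NMDA + PBS and at 19.8, 15.0 and 20.7 FPKM in NMDA + SCF.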

How the data were processed

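Retinal mRNA was enriched with oligo (dT) beads, sequenced on an Illumina HiSeq and filtered by the authors, who deposited FPKM for each transcript, with the clean reads of each library in a separate table (44925938 to 48783182). The aligner and counter are not given in the sources used here. The submitters' processing notes name mm9, but 98.2% of the 63313 Ensembl transcripts found in GENCODE M21 had its GRCm38 positions, which are used here. Gene values are sums over those Ensembl transcripts that all 6 files list (46933). Value times transcript length was whole (within 0.05 of a fragment) for 98.56 to 98.68% of values, and these fragments served for depth and floors, which cover counting error only. Genes at 0 in every library of a fit were left out, and log2(FPKM + 1) was fitted with limma 3.58.1 (R 4.3.3, variance trend, condition only, Benjamini-Hochberg over all genes), first tested on simulated data. A fold change on this scale understates that of low genes. Per-library values are given for members with a mean of at least 1 FPKM, at an unadjusted p of 0.05 or with groups that do not overlap. The members and lists were chosen with earlier results of these data known. Tables and plots used Python 3.11.15.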

Additional observations from a re-analysis of the deposited data

How the results depend on the processing

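No member was called under any alternative. At an unadjusted p of 0.05, leaving out single libraries gave 2 to 6 members and 1150 to 4332 of all genes, the latter without NMDA + PBS replicate 1. That fit called 191 genes at the thresholds used, none of them members, and no other single-library fit called any (0). It sets list B controls against list A libraries, so its calls cannot be told apart from a difference between the lists. The 191 became 55 when genes at 0 in the remaining libraries were kept, an alternative added after seeing the data. Further alternatives were also chosen after seeing the data: protein-coding transcripts alone gave 1451 genes, and leaving out NMDA + SCF replicates 1 and 3 together gave 1037 genes and 1 member (Dkk1). The replicate numbers did not pair the libraries (r of -0.041, -0.039 and -0.064 between same-numbered deviations). A replicate block left 2 members and 1856 genes at an unadjusted p of 0.05. The members' median log2 fold change was -0.021 with upper quartile scaling, 0.21 at a mean of at least 1 FPKM and 0.040 to 0.13 with single libraries left out. Lrp6 turned to -0.15 with voom on fragments and to -0.22 with coding transcripts. Ctnnb1 lay between -0.030 and 0.53 with single libraries left out and at -0.36 without NMDA + SCF replicates 1 and 3. Fzd3 was at 0.0048 against NMDA + PBS replicate 1 alone. The causes were not tested, beyond the smaller number of genes or libraries. Sfrp1 (0.49 to 2.35, the lowest without NMDA + SCF replicates 1 and 3, where it is high), Sfrp5 (0.70 to 1.15) and Fzd4 (0.13 to 0.39) were positive in all settings run. Sfrp5 missed an unadjusted p of 0.05 with the block and in 5 of 6 single-library fits. With upper quartile scaling 5 members had groups that do not overlap, Fzd3 (lower) beside the 4. Depth limits genes with few fragments, such as Wnt3a and Dkk1.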
